A study of Mus musculus with 6 samples.

Results

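The genes described here are 10 genes whose transcription is known to respond to glucocorticoids, listed by name: Fkbp5, Tsc22d3, Sgk1, Ddit4, Zbtb16, Mt1, Mt2, Nfkbia, Cebpd and Nr3c1. They were read as every probe set that the platform annotation assigns to one of them. All 10 were on the array, as 12 of its 12422 probe sets other than controls, with 2 probe sets each for Zbtb16 and Nfkbia and 1 for each of the others. The samples were whole adrenal glands of male mice of 12 weeks, 3 from chromogranin A (Chga) knockout mice and 3 from wild-type mice, with 1 array per sample. The labels give no treatment and no background strain, and apart from genotype the groups carry the same labels. The knockout is not stated to be limited to a cell type, so that loss of Chga in other tissues of the animal is part of the genotype.

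The adrenal cortex makes glucocorticoids, in the mouse mainly corticosterone, and its own cells as well as the chromaffin cells of the medulla carry the glucocorticoid receptor. Hormone-bound receptor leaves its chaperones, enters the nucleus and binds DNA, where it raises genes such as Fkbp5, Tsc22d3, Sgk1 and Zbtb16 or holds back inflammatory ones. Most of these genes also answer other signals: metallothioneins to zinc and other metals, Ddit4 to low oxygen, energy and amino acid stress, Sgk1 to salt and growth factors, and Nfkbia to NF-kappa-B, which it inhibits. In the medulla, glucocorticoid from the surrounding cortex is known to maintain the adrenaline-making chromaffin cell.

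No difference between knockout and wild-type adrenals passed the test for these genes, and Ddit4 had the largest. Of the 9 member probe sets bright enough to test, which stood for 8 genes, 0 passed an adjusted p of 0.05 in limma, where 33 of all 7453 tested probe sets (0.443%) passed in either direction, and 1 had an unadjusted p under 0.05, where 11.3% of all tested probe sets did. That member was Ddit4, whose signal was 2.03 times higher in knockout glands and was the only tested member signal that was higher on each knockout array than on any wild-type array. Mt1 had the next smallest p, with knockout glands uniformly high and wild-type glands scattered. Fkbp5, the member often used as a readout of receptor activity, differed by 1.01-fold. Tsc22d3, Nr3c1 and 1 of the Zbtb16 probe sets were too dim to be tested.

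Promoter sequences were at hand for 7 of the 10 genes, from RefSeq on the GRCm38.p6 mouse build, as 14 windows of 300 bases that run from 250 bases before a transcription start to 50 after it. Those shown belong to Ddit4, the member with the largest difference, and to Mt1 and Mt2, whose signals moved together between wild-type animals. Sgk1 and Nfkbia are shown too, 2 genes of like profile by the brighter Nfkbia probe set. The second Nfkbia probe set ordered the arrays otherwise. The windows shown for Sgk1 and Nfkbia hold a known kind of inducible element. All are written 5′ to 3′ along the gene's strand. For Ddit4 (chr10:59951721-59952020, minus strand) capitals mark the GC box GGGCGG, found in 35.7% of all 32851 windows.
Ddit4: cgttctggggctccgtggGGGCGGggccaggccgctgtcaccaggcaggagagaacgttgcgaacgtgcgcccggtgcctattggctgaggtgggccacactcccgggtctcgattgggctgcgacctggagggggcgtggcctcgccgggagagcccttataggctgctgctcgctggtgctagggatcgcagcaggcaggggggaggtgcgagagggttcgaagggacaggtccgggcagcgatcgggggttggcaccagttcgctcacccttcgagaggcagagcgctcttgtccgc
For Mt2 (chr8:94172368-94172667, plus strand) and Mt1 (chr8:94178839-94179138, plus strand) capitals mark the core of the metal response element, searched as TGCACNC and TGCGCNC on both strands.
Mt2: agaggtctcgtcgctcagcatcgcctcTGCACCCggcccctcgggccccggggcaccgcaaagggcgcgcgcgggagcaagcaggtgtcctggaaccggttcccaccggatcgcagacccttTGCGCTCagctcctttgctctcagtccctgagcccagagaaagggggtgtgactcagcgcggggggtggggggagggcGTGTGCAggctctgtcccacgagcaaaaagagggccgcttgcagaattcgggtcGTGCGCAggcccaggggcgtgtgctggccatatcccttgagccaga
Mt1: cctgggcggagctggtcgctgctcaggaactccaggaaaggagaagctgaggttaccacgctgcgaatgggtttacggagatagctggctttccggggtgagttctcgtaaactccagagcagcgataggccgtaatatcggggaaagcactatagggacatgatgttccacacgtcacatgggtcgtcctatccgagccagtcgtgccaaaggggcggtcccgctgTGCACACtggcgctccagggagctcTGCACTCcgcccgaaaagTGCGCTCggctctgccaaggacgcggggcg
The Mt2 window held 4 such cores and the Mt1 window 3, and at least 3 cores were present in 1.97% of all windows. For Sgk1 (chr10:21993640-21993939, plus strand) capitals mark a full glucocorticoid response element, searched as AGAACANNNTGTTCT, which contains the half-site TGTTCT once on each strand.
Sgk1: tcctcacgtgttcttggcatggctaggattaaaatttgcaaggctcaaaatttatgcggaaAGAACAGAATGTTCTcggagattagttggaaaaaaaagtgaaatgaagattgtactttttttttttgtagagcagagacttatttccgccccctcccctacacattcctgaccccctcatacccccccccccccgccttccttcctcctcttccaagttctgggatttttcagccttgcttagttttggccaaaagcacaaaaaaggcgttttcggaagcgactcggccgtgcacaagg
For Nfkbia (chr12:55492598-55492897, minus strand) capitals mark a kappa-B element, searched on both strands as GGGNNNTTCC and present in 5.56% of all windows.
Nfkbia: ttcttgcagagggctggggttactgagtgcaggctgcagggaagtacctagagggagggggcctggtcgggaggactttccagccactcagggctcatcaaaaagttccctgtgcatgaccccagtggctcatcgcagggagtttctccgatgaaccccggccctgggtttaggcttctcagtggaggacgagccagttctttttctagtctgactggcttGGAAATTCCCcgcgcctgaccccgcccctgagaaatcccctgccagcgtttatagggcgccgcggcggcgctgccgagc

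The full glucocorticoid element of Sgk1 lay at bases -189 to -175, counted from the start site of that window (the base before it is -1), 1 of 6 starts listed for the gene, and only 3 of the 32851 windows (0.00913%) held one. The half-site TGTTCT was in 19% of all windows. It was in 1 of the 3 windows of Tsc22d3 and in 3 of the 6 windows of Sgk1. Of these, the Sgk1 window shown holds a further copy outside the full element. The single windows of Ddit4, Fkbp5, Mt1, Mt2 and Nfkbia did not hold those letters, which says nothing about sites elsewhere in these genes. The kappa-B element of Nfkbia lay at bases -29 to -20. In the Mt1 window the cores lay between bases -23 and 27 of the start that the table uses, and in Mt2 between bases -223 and 11. Matches are letters only, and binding was not measured.

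The arrays carried a common scale, with median signals between 954 and 1093. Chga itself gave 37413 ± 8452 on the wild-type and 999 ± 170 on the knockout arrays (SD, n = 3) with its brighter probe set, and the groups did not overlap. Markers of the gland were present in every sample. The 9 adrenal cortex genes tested summed to between 549891 and 667238. The 7 chromaffin genes tested summed to between 194609 and 207510 in knockout and between 163243 and 181968 in wild type, without overlap. Of these 7 only Chgb, which gave the largest signals, did not overlap by itself. Chgb read 93585, 120199 and 98209 in knockout and 69305, 77123 and 76133 in wild type. Pnmt read 46550, 29498 and 33268 against 49331, 37676 and 39401, so that the sum does not speak for each chromaffin gene. Knockout arrays 2 and 3 stood apart in 2 ways that touch the results below. Skeletal muscle markers summed to 65063 and 34263 on those arrays and to 10254 on knockout array 1, against 10792 to 11171 in wild type. Of 13 such markers 8 were tested (Myh1, Myh2, Tnnt3, Tnni2 and Mb were dim). Of these, 5 had a higher mean log2 signal in knockout. Acta1 gave the largest signal of the 8 on those arrays, while Ckm, Myh4 and Actn3 had log2 differences (knockout minus wild type) of -0.17, -0.08 and -0.24. The 3' to 5' signal ratio of Gapdh is a sign of RNA or cRNA integrity. It was 1.30 and 1.29 on knockout arrays 2 and 3, 0.831 on knockout array 1 and between 0.762 and 0.807 in wild type. By the same ratio of beta-actin all 3 knockout arrays, at 1.319, 1.695 and 1.724, lay above the wild-type range of 1.144 to 1.218. Macrophage markers (11 of 13 tested) had sums of 25561, 45742 and 37760 in the order of the knockout arrays, and between 20940 and 26069 in wild type, and endothelial markers (9 of 10 tested) to between 32884 and 42026 against 30584 to 31856. Sums of the other marker lists overlapped between the groups. Adipocyte markers ranged from 43245 to 79132 in knockout and from 34030 to 68111 in wild type, and capsule fibroblast markers from 60668 to 73477 and from 47115 to 62074. Liver (3 tested) ranged from 15855 to 34587 and from 12410 to 34217, and lymphocytes (2 tested) from 3024 to 5556 and from 3042 to 5319. In whole glands, fewer cells of a type and less RNA per cell cannot be told apart.

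**Figure D1:**
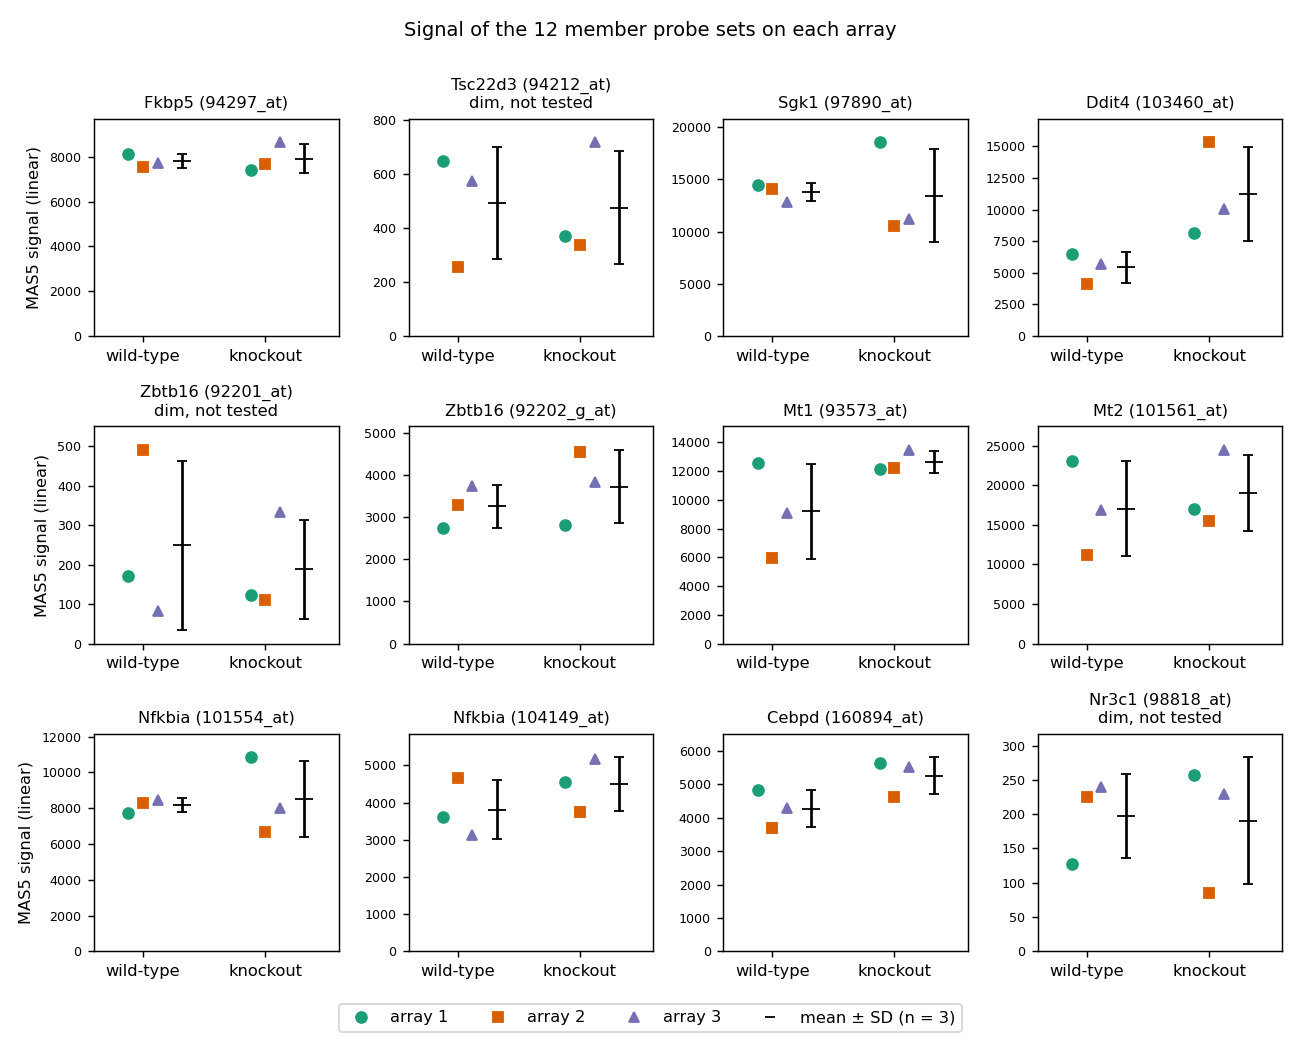
MAS5 signal (linear scale, from 0) of each of the 12 member probe sets on the 3 wild-type and 3 knockout arrays, with marker shape and colour giving the array number and the black bar the mean ± SD (n = 3). Only for Ddit4 do all knockout points lie above all wild-type points; the panels titled dim are Tsc22d3, Nr3c1 and 1 probe set of Zbtb16.

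The receptor and its co-chaperone came first in the pathway. Nr3c1, which encodes the glucocorticoid receptor, read 257, 85.4 and 229 in the 3 knockout glands, given in the order of the arrays here and below, and 128, 225 and 240 in the 3 wild-type glands. The groups overlapped, and the probe set lay under the brightness limit, a signal of about 582, so that its level is poorly measured here. Across the 6 arrays the exact permutation test gave p = 0.9 (two-sided, where 3 against 3 arrays cannot go below 0.1).

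Fkbp5 encodes the FK506-binding protein that joins the receptor's Hsp90 complex and lowers its affinity for hormone, and the receptor in turn induces it. Its signal was 7410, 7695 and 8656 on the knockout arrays and 8133, 7555 and 7741 on the wild-type arrays. The groups overlapped fully, and the values were among the steadiest of the members, with a coefficient of variation (SD over mean) of 3.78% in wild type and 8.25% in knockout glands. The log2 difference of knockout minus wild type, on log2(signal + 16) as for all differences here, was 0.02 ± 0.13 (SE, limma adjusted p = 0.973). Its 95% interval, which is not adjusted for the number of probe sets, reached from a fold of 0.826 to one of 1.24. The value turned to -0.01 with quantile normalization.

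Ddit4, also called Redd1, encodes an inhibitor of the growth kinase complex mTORC1. It read 8161, 15338 and 10080 in knockout and 6494, 4098 and 5661 in wild-type glands. The lowest knockout array thus lay above the highest wild-type array, a separation in this direction that 7.55% of all tested probe sets had. Means were 11193 ± 3716 and 5418 ± 1217 (SD, n = 3), a fold of 2.03 with a 95% interval from 1.37 to 3.01. The log2 difference of 1.02 ± 0.25 (SE) had an unadjusted p of 0.00281 and did not pass over all probe sets (limma adjusted p = 0.192).

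How far apart the groups lay for Ddit4 depended on the arrays. Knockout array 2 was highest in Ddit4, in the Gapdh ratio and in the summed signal of every marker list, muscle included, except adrenal cortex. In the beta-actin ratio knockout array 3 was higher. Without knockout array 2 the difference was 0.77 (adjusted p = 0.472). With knockout array 1 alone against wild type it was 0.62 (limma adjusted p = 0.996, the range over 19 alternative fits being 0.0496 to 0.998), and that array still exceeded every wild-type array. The summed muscle signal of that array was below the wild-type range, while the muscle actin gene Acta1 read 565 there, against 180, 180 and 29.1 in wild type and 32131 and 13869 on knockout arrays 2 and 3. The beta-actin 3' to 5' ratio of knockout array 1, 1.319, was above the wild-type range of 1.144 to 1.218. Without knockout array 1 the difference was 1.22 and the adjusted p 0.0496, the single call of any member in those fits. With the Gapdh 3' to 5' ratio as a covariate the difference was 0.49 (adjusted p = 0.998). The part of muscle, of the other marker lists and of RNA integrity in the result was not tested beyond these values.

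Sgk1, the serum- and glucocorticoid-induced kinase, promotes sodium uptake and cell survival. Its signal was 18572, 10549 and 11185 in knockout and 14496, 14026 and 12821 in wild-type glands. Knockout array 1 lay above all wild-type arrays and knockout arrays 2 and 3 below all of them, while the wild-type arrays were close together (coefficient of variation 6.27%, against 33.2% in knockout). The log2 difference was -0.08 ± 0.21 (SE, limma adjusted p = 0.916), with a 95% interval from 0.681-fold to 1.31-fold. Its value turned with the fit: it was -0.34 without knockout array 1 (unadjusted p = 0.0333, limma adjusted p = 0.259), 0.07 without knockout array 2, 0.02 without knockout array 3, and 0.53 with the Gapdh ratio as a covariate (unadjusted p = 0.0192, limma adjusted p = 0.800). Adjusted p values lay between 0.259 and 0.990 over the 19 alternative fits.

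The 2 metallothioneins bind zinc and copper and are induced by both metals and glucocorticoid. Mt1 read 12130, 12219 and 13490 on the knockout arrays and 12533, 5990 and 9059 on the wild-type arrays. The knockout arrays were nearly level (coefficient of variation 6.03%) and the wild-type arrays were not (35.6%), with wild-type array 1 inside the knockout range and wild-type array 2 at less than any other. The log2 difference was 0.52 ± 0.24 (SE, unadjusted p = 0.0568, limma adjusted p = 0.461), and it was 0.24 without wild-type array 2 and 0.77 without wild-type array 1.

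Mt2 read 17036, 15533 and 24486 on the knockout arrays and 23100, 11193 and 16854 on the wild-type arrays. These groups overlapped, and the log2 difference was 0.19 ± 0.26 (SE, limma adjusted p = 0.820). That value was 0.44 without wild-type array 1 and turned to -0.08 without wild-type array 2, to -0.006 without knockout array 3 and to -0.01 with the Gapdh ratio as a covariate. In wild type the 2 genes kept step: relative to the wild-type mean of each gene, wild-type arrays 1 to 3 had log2 values of 0.51, -0.55 and 0.04 for Mt1 and 0.50, -0.54 and 0.05 for Mt2. In knockout glands, relative to each gene's knockout mean, the values were -0.05, -0.04 and 0.10 for Mt1 and -0.13, -0.26 and 0.39 for Mt2, so that both were highest on array 3 and Mt2 varied more. The genes lie side by side on mouse chromosome 8 and their windows shown above share the metal element cores. Whether their probe sets cross-hybridise was not tested.

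**Figure D2:**
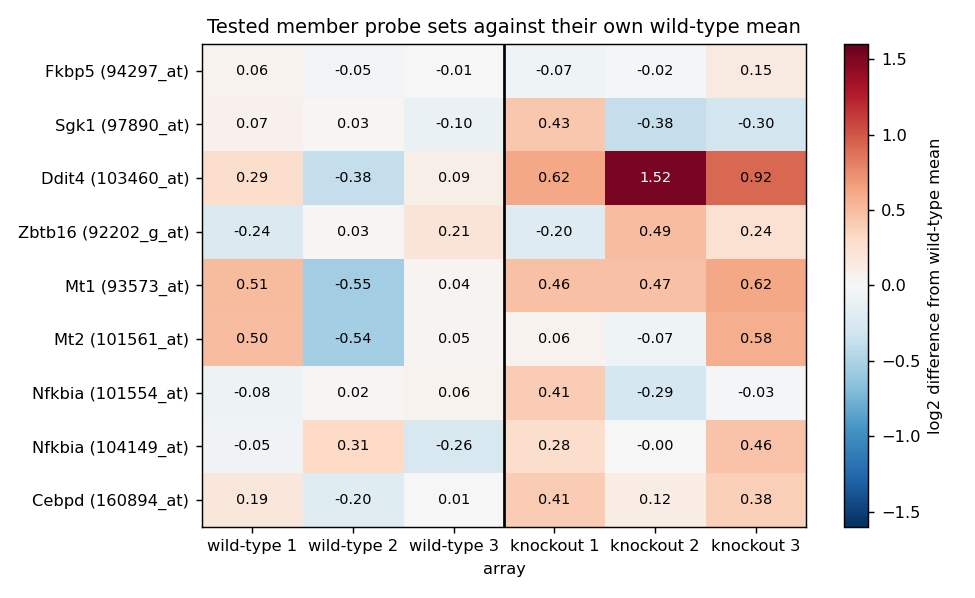
Log2 difference of each array from the gene's own wild-type mean, for the 9 tested member probe sets (rows) on 3 wild-type and 3 knockout arrays (columns); red is higher and blue lower, and each cell prints its value. Ddit4, Mt1 and Cebpd are above 0 on all 3 knockout arrays, Ddit4 from 0.62 to 1.52. Wild-type array 2 is below 0 for Mt1, Mt2, Ddit4, Cebpd and Fkbp5.

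4 further members are transcriptional mediators or brakes on inflammation. Tsc22d3, better known as Gilz, encodes a leucine zipper protein that binds NF-kappa-B and AP-1. Its dim probe set gave 370, 338 and 718 in knockout and 648, 256 and 573 in wild type. The ranges overlapped (exact permutation p = 1, two-sided), and the probe set was not tested in limma.

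Nfkbia encodes I-kappa-B-alpha, which holds NF-kappa-B in the cytoplasm. Its brighter probe set read 10847, 6684 and 8001 in knockout and 7724, 8281 and 8486 in wild type. As for Sgk1, the wild-type arrays were close together (coefficient of variation 4.83%), knockout array 1 lay above them and knockout array 2 below. The log2 difference was 0.03 ± 0.18 (SE, limma adjusted p = 0.966), and -0.16 without knockout array 1. This value was 0.41 with knockout array 1 alone. With the Gapdh ratio as a covariate it was 0.48 (unadjusted p = 0.0469, limma adjusted p = 0.984). The second probe set read 4562, 3756 and 5182 in knockout and 3624, 4673 and 3134 in wild type, with a difference of 0.25 ± 0.20 (adjusted p = 0.674) that was 0.12 without wild-type array 3, 0.14 without knockout array 3 and 0.40 without wild-type array 2. The 2 probe sets did not order the arrays alike: in wild type the first was highest on array 3, on which the second was lowest.

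Cebpd encodes a C/EBP transcription factor that rises early in acute-phase responses and fat cell differentiation. It read 5634, 4631 and 5524 in knockout and 4837, 3709 and 4282 in wild type. Knockout array 2 lay below wild-type array 1, and both other knockout arrays lay above all wild-type arrays. The log2 difference of 0.30 ± 0.16 (SE) did not pass (unadjusted p = 0.0926, limma adjusted p = 0.510), and its value stayed between 0.20 and 0.41 in the 19 alternative fits.

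Zbtb16 encodes the zinc finger factor PLZF. Its 2 probe sets gave different pictures of brightness, since 1 was dim, at 123, 110 and 334 in knockout and 173, 492 and 82.4 in wild type. The brighter one read 2805, 4544 and 3822 in knockout and 2738, 3282 and 3734 in wild type, with overlapping groups. Its log2 difference was 0.18 ± 0.21 (SE, limma adjusted p = 0.789) and turned to -0.27 with the Gapdh ratio as a covariate and to -0.20 with knockout array 1 alone.

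**Figure D3:**
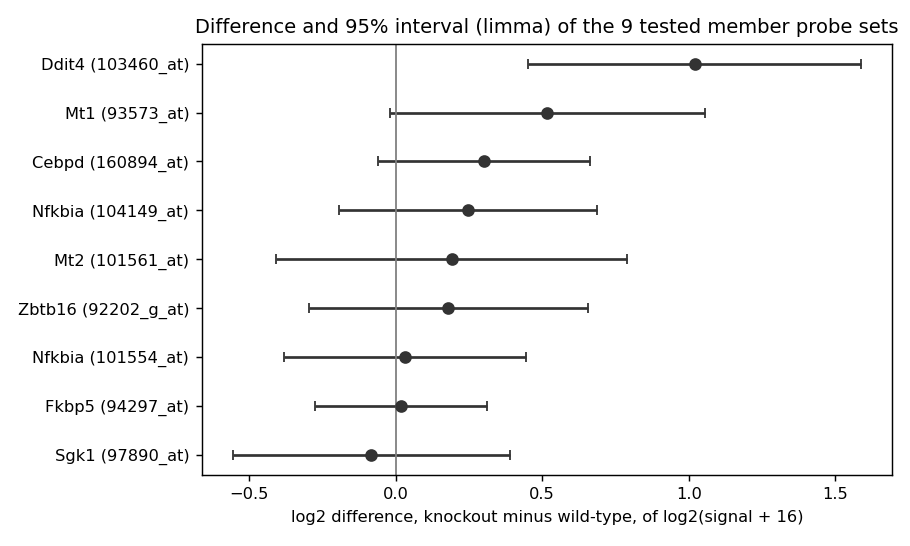
Log2 difference, knockout minus wild type, with its 95% limma interval for each of the 9 tested member probe sets, ordered by value. The interval of Ddit4 runs from 0.45 to 1.59 and lies above 0; the other 8 intervals include 0.

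Taken by sign, 8 of the 9 tested probe sets had a difference above 0 and Sgk1 one below it, where 48.9% of all tested probe sets were above 0. The median difference of the 9 was 0.19, against -0.01 over all 7453, and its size was near that of an ordinary probe set: the median of the differences without their sign was 0.19 for the members and 0.19 for all. The number above 0 lay between 6 and 9 when an array was left out, and it was 6 with the Gapdh ratio as a covariate. The dim, untested probe sets of Tsc22d3, Zbtb16 and Nr3c1 had values below 0, at -0.03, -0.21 and -0.13. Without the brightness filter 8 of 12 member probe sets were above 0, with a median of 0.11. Spread between animals was 15.3% (median coefficient of variation) for the members in wild type and 23.5% in knockout, beside 14.6% and 16.2% for all tested probe sets.

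Some arrays recurred at the ends of the range. Wild-type array 2 was the lowest wild-type array for 5 of the 9 probe sets (32.8% of all tested probe sets). These were Fkbp5, Ddit4, Mt1, Mt2 and Cebpd. This was not particular to the members: that array was also lowest for 12 of 19 immediate early and 5 of 7 chromaffin genes. For 7 of 9 adrenal cortex genes it was the highest. Wild-type array 1 was the highest for 6 of 9 (34.1% of all), and knockout array 3 was the lowest knockout array for 0 of 9 (29.5% of all). Among the 28 pairs of the 8 tested genes, each by its brightest probe set and centred on its mean over the 6 arrays, Nfkbia and Sgk1 had the closest log2 profiles, with a root mean square difference of 0.14, followed by Cebpd and Fkbp5 at 0.19 and Mt1 and Mt2 at 0.22. Ddit4 and Sgk1 were farthest apart, at 0.77.

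In a list of other genes known to respond to glucocorticoid none passed the test, though Dusp1 came near. Of 27 listed, 25 were on the array and 23 were tested. Of these, 0 passed in limma and 4 had an unadjusted p under 0.05, where 11.3% of all tested probe sets did. Dusp1, a phosphatase that switches off MAP kinases and also an immediate early gene, read 13854, 28151 and 24265 in knockout and 8246, 8339 and 9662 in wild type, a log2 difference of 1.28 ± 0.24 (SE, limma adjusted p = 0.0732). Cdkn1c, which encodes the cell cycle inhibitor p57, went the other way at 42353, 24446 and 25214 against 70441, 48544 and 62532 (-1.01 ± 0.23, adjusted p = 0.153). For neither gene did the groups overlap, and 8.83% of all tested probe sets had every knockout array below every wild-type array. Pik3r1, a regulatory subunit of phosphoinositide 3-kinase, had a value of -0.68 (adjusted p = 0.389) and Errfi1, a brake on the EGF receptor, one of 0.58 (adjusted p = 0.390).

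Values varied among the genes of that list that did not stand out by p. Per1, a clock gene, had a difference of 0.52 ± 0.27 (SE, limma adjusted p = 0.496) and Klf9, a zinc finger factor, one of 0.34 ± 0.16 (adjusted p = 0.469). For Klf9 the knockout arrays were all above the wild-type arrays, and for Per1 they overlapped. Per2, Angptl4, Pck1 and Glul, which serve the clock, fat metabolism, glucose production and glutamine synthesis, lay at 0.05, 0.03, -0.12 and 0.12. In all, 20 of the 23 values were above 0, with a median of 0.10. Of all tested probe sets 48.9% were above 0, with a median of -0.01. The number above 0 in the list fell to 13 without knockout array 1, where its median was 0.19 and both Dusp1 and Cdkn1c passed. Dusp1 also passed with array weights.

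The partners of the receptor were measured too. Of 12 tested chaperones and immunophilins 0 passed in limma and 3 had an unadjusted p under 0.05. Dnajb1, a stress-induced Hsp40 co-chaperone, had a difference of 1.16 ± 0.28 (SE, adjusted p = 0.192), while Stip1, which bridges Hsp70 and Hsp90, and St13, another Hsp70 partner, had values of -0.45 (adjusted p = 0.390) and -0.41 (adjusted p = 0.430). Of 10 tested coregulators 0 passed and 1 had an unadjusted p under 0.05, the acetyltransferase gene Crebbp at 0.40 (limma adjusted p = 0.433); the coactivator Ncoa1 was at -0.45 and the corepressor Nrip1 at 0.32.

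The tested genes that make or convert corticosterone gave no call either. Of 13 listed, 11 were on the array. Cyp11b1 and Cyp11b2 were not on it and Hsd11b2 was too dim to test, so that those steps were not covered. Of 10 tested 0 passed in limma and 1 had an unadjusted p under 0.05, Nr0b1, a repressor of steroidogenic genes, at -0.75 ± 0.24 (SE, adjusted p = 0.320). Mrap, the accessory protein of the ACTH receptor, had a value of -0.51 (adjusted p = 0.504) and Hsd11b1, which regenerates active glucocorticoid, a value of 0.47 (adjusted p = 0.650). Over the list the median was 0.03. The level of the hormone itself was not measured here.

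No gene tested around Sgk1 and Ddit4 passed either. Ndrg1, whose protein Sgk1 phosphorylates, read 7569, 7295 and 9161 in knockout and 5026, 4894 and 5267 in wild type, a difference of 0.65 ± 0.14 (SE, limma adjusted p = 0.142) with no overlap. Akt1, a kinase of the same family as Sgk1, lay at -0.24 (adjusted p = 0.490), also without overlap, and Akt2 at 0.15. Of the 6 tested relatives and targets of Sgk1, 0 passed and 1 had an unadjusted p under 0.05. Of 7 tested genes of the mTORC1 axis that Ddit4 restrains, 0 passed in limma and 0 had an unadjusted p under 0.05: Tsc1 was at 0.36, Eif4ebp2 at 0.16 and Mtor at 0.16.

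Immediate early genes, which cells switch on within minutes of a stimulus, were the context list with calls. Of 19 tested, 7 rose in limma, 0 fell and 12 did not pass, with a median of 1.15, and their summed signal was between 262461 and 270575 in knockout and between 109137 and 134726 in wild type, so that the groups were far apart. This list includes Dusp1 and was known from earlier results to be higher. The genes that passed were Junb, Egr1, Btg2, Klf4, Ier3, Fos and Atf3, transcription factors and stress-inducible regulators, and Junb had the smallest adjusted p, with a log2 difference of 3.48 ± 0.22 (SE, limma adjusted p = 0.000139). Knockout array 2, highest for Ddit4, was also the highest array for Fos, Egr1, Btg2 and Dusp1, but not for Junb, Klf4, Ier3 or Atf3.

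**Figure D4:**
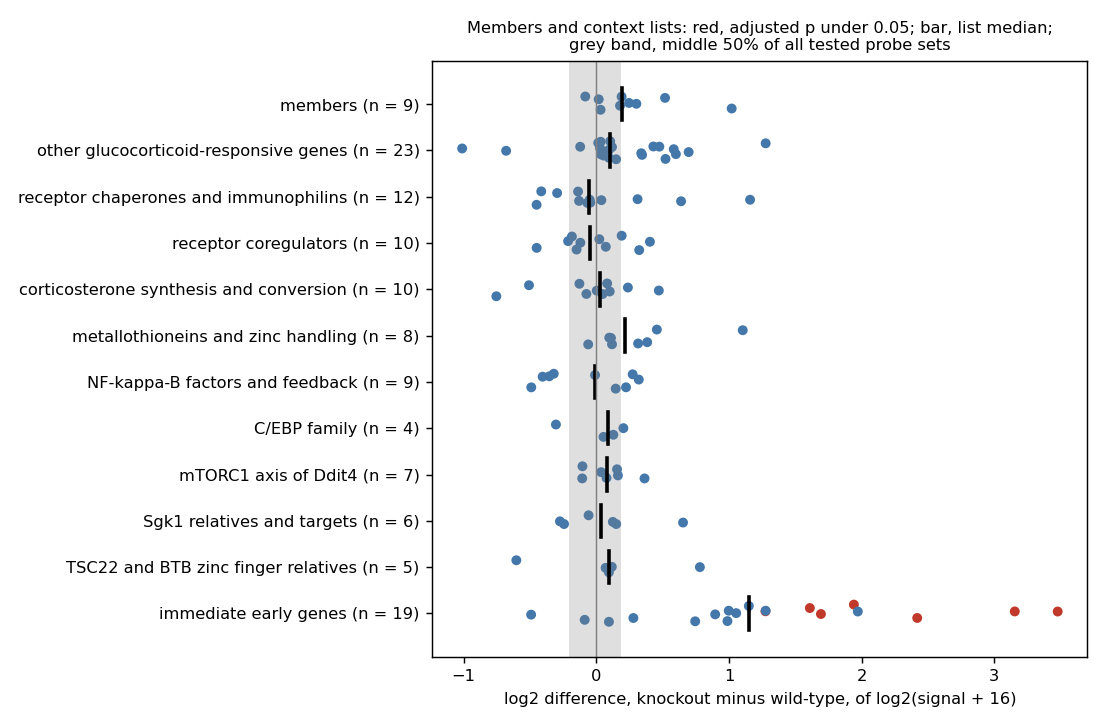
Log2 difference, knockout minus wild type, of each tested member probe set and of each tested gene of 11 context lists; red points passed an adjusted p of 0.05, the black bar is the list's median and the grey band the middle 50% of all tested probe sets, from -0.20 to 0.18. Red points occur in the immediate early list, whose median is 1.15, while the members' median is 0.19.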

How the data were processed

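RNA of 6 mouse adrenal samples was measured on single-colour Affymetrix arrays. The authors deposited linear intensities, 1 value for each probe set. Per the submitters' processing notes these are MAS5 values, with the version, scaling target and genome build not given in the sources used here. Detection calls were not used. A mean that leaves out 2% of probe sets at each end came to 2501 for all arrays, so no further scaling was applied. Precision rests on 3 arrays per group. The labels do not say that arrays of 1 number belong together, and name no batch. That each sample was 1 animal is read from the stated n per genotype; otherwise p-values measure only the spread between these samples.

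Of 12488 probe sets, 66 controls were left out, and 10833 of the rest had 1 gene symbol, 396 several and 1193 none. A RefSeq table gave current symbols by Entrez identifier (16 had no match). Values were taken as log2(signal + 16), which understates changes of dim genes. Probe sets with a mean under the 40th percentile (a signal of about 582) were not tested. The comparison used R 4.3.3 and its package limma 3.58.1 (lmFit, eBayes with trend), with p-values adjusted by Benjamini-Hochberg over 7453 tested probe sets and a threshold of 0.05. Adjusted p values are from this test. The script was first checked on simulated arrays for recovery of known changes. Those changes were larger than any member difference here, so the check does not cover changes of the size reported. For lists, each gene was represented by its brightest tested probe set.

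The members and lists were chosen with earlier results of these data known. Named were all members, the genes of each context list past the threshold with up to 3 of smallest p, and for the 3 members of smallest p the 3 genes of nearest profile. Errfi1, Per1, Klf9, Per2, Angptl4, Pck1, Glul and Akt2 were named after their values were seen. Signals of different probe sets are not compared as levels. Alternatives were other pseudocounts, filters, scalings and eBayes settings, array weights, a Gapdh 3' to 5' covariate, the replicate number as a block and arrays left out.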

Additional observations from a re-analysis of the deposited data

How the results depend on the processing

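Of 171 alternative fits of the 9 tested member probe sets, 153 kept direction and side of the threshold, 1 passed it (Ddit4 without knockout array 1) and 17 had the other sign; none of those 17 passed. Ddit4, Mt1, Cebpd and the second probe set of Nfkbia kept their sign in all 19 fits, Ddit4 between 0.49 and 1.22. With the Gapdh ratio as a covariate Mt2, Zbtb16, Fkbp5 and Sgk1 had values of -0.012, -0.27, -0.092 and 0.53. With knockout array 1 alone Zbtb16, Fkbp5 and Sgk1 had values of -0.20, -0.075 and 0.43. Fkbp5 was at -0.008 with quantile normalization and the brighter Nfkbia probe set at -0.049 with array weights. Over all 19 fits the latter ranged from -0.16 to 0.48. Leaving out 1 array gave ranges from -0.16 to 0.19 for that Nfkbia probe set, from -0.082 to 0.44 for Mt2, from -0.048 to 0.064 for Fkbp5 and from -0.34 to 0.067 for Sgk1; the cause was not tested.

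The number of probe sets called was 33, and 17 without an intensity trend, 12 with the Gapdh covariate, 13 with knockout array 1 alone and between 15 and 141 when 1 array was left out (15 without knockout array 3, 17 without wild-type array 2, 19 without wild-type array 3, 141 without knockout array 1). The number of member probe sets called was 0, and between 0 and 1 when 1 array was left out. Of the genes in the context and marker lists 7 were called, 4 with no filter, 3 without trend, 3 with the Gapdh covariate, 3 with knockout array 1 alone and between 3 and 18 when 1 array was left out. Arrays of the same number deviated from their group means with correlations of 0.26, -0.04 and -0.04, so the numbers were not taken as pairs; with the replicate block 57 probe sets, 13 list genes, Dusp1 and Cdkn1c among them, and 0 members were called. With 3 arrays per group, the median standard error of a tested log2 difference was 0.21.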

Other observations

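Zinc handling and the relatives of the members that have not been described gave no call. Of 8 tested genes of metallothioneins and zinc handling other than Mt1 and Mt2, 0 passed in limma and 0 had an unadjusted p under 0.05. Values were above 0 for 7 of the 8, and for 48.9% of all tested probe sets. Mt3, the brain-type metallothionein, read 6173, 7729 and 8468 in knockout and 6616, 5790 and 5474 in wild type, a log2 difference of 0.31 ± 0.16 (SE, adjusted p = 0.498). Mtf1, the factor that binds metal response elements, read 1054, 1795 and 1767 in knockout and 1232, 186 and 1366 in wild type, so that wild-type array 2, the lowest for Mt1 and Mt2, was also lowest for Mtf1 (difference 1.10 ± 0.66, SE, limma adjusted p = 0.553). Over the list, that array was the lowest wild-type array for 3 of the 8 genes and the highest for 2, where it was the lowest for 32.8% of all tested probe sets.

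Of 9 tested NF-kappa-B genes 0 passed in limma and 0 had an unadjusted p under 0.05. Rela, the main activating subunit, had a difference of 0.22 ± 0.11 (SE, adjusted p = 0.494) with all knockout arrays above all wild-type arrays, and Ikbkb, the kinase that marks I-kappa-B for breakdown, one of -0.49 ± 0.27 (adjusted p = 0.521) with all below. Nfkbib, which encodes a relative of I-kappa-B-alpha, was at -0.32. Of 4 tested C/EBP family genes 0 passed and 0 had an unadjusted p under 0.05, with Cebpg at -0.30, Ddit3 at 0.20 and Cebpa at 0.13. Of 5 tested relatives of Tsc22d3 and Zbtb16, 0 passed in limma and 1 had an unadjusted p under 0.05, Zbtb20 at 0.78 (adjusted p = 0.424), while Zbtb7a was at -0.60 and Tsc22d1 at 0.12.

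Among 5662 other named genes, those whose centred log2 profile over the 6 arrays lay nearest to Ddit4 were Igfbp6, Dnajb1 and Csf1r, with root mean square differences of 0.15, 0.16 and 0.20. Igfbp6, a binding protein of insulin-like growth factors, read 4669, 6524 and 4983 in knockout and 3107, 2072 and 3199 in wild type, and Csf1r, the receptor of macrophages, read 2543, 3407 and 2863 against 2044, 1315 and 1369. All 3 were highest on knockout array 2, as Ddit4 was. Nearest to Mt1 were Pmel, Tgfbi and Mcam, at 0.07, 0.08 and 0.08, each lowest on wild-type array 2, and nearest to Cebpd were Sart3, Psmb8 and Smim11, at 0.04, 0.06 and 0.06. These likenesses over 6 arrays are descriptions, and a flat profile finds near neighbours more easily than a varied one.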
